A study of Mus musculus with 8 samples.

Results

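The 9 NLRP genes described here, Nlrp4a, Nlrp4b, Nlrp4c, Nlrp4e, Nlrp4f, Nlrp9a, Nlrp9b, Nlrp9c and Nlrp14, were chosen by name from the 46078 genes counted in mouse oocytes, as NLRP genes of reproductive tissue that are not counted here among the subcortical maternal complex. NLRP proteins carry a pyrin domain, a NACHT nucleotide-binding domain and leucine-rich repeats. Some family members, such as NLRP3, assemble inflammasomes in immune cells, whereas another branch, expanded in rodents by gene duplication, is transcribed mainly in oocytes and stored for the embryo. Maternal NLRP14 acts with UHRF1 in early embryos, loss of Nlrp4f disturbs oocyte cytoplasm and early cleavage, and NLRP9B also serves as a sensor of viral RNA in the gut.

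RNA was measured in 8 libraries of fully grown germinal vesicle (GV) oocytes, 4 labelled Zp3-Cre, the control, and 4 labelled CNOT7&8 KO. CNOT7 and CNOT8 are paralogous deadenylases of the CCR4-NOT complex, which shortens the poly(A) tails of mRNAs. KO females carried the floxed alleles Cnot7 fl/fl with Cnot8 fl/fl, bred for at least 8 generations onto C57BL/6J, together with Zp3-Cre. The females were 4 weeks old and were injected with pregnant mare serum gonadotropin (PMSG) 48 h before collection. Both groups shared the Cre transgene, the hormone and the background, and the labels name no floxed allele in the control. The Zp3 promoter drives Cre in growing oocytes only, so the somatic cells of these ovaries kept both genes. Each library pooled 100 oocytes, the number of females was not given, and p-values therefore measure the spread between these libraries, which may in part be technical.

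Library totals ranged from 14943671 to 44092144 counts in control and from 8639444 to 26784110 in KO oocytes, so that 3 counts, taken as the detection floor, equalled 0.068 to 0.347 CPM (counts scaled to a fixed library total). Cnot8 mRNA fell from 168 ± 20.0 to 35.2 ± 1.40 CPM (SD, n = 4), with a log2 fold change of -2.25. Cnot7 mRNA fell by 0.38 on the log2 scale, to 77.1% of the control mean (adjusted p = 0.0105, edgeR's quasi-likelihood test). These are RNA counts, and the paper reports from immunoblotting that both proteins were absent in KO oocytes. The 10 oocyte markers, among them Zp1, Zp2, Zp3, Gdf9 and Bmp15, summed to 19090 to 20092 CPM in control and 15045 to 17832 CPM in KO oocytes. The 10 granulosa markers summed to 127 to 171 CPM in control and 212 to 265 CPM in KO oocytes. Of 9 tested, 5 were higher and 1 lower in the KO, beside 31.2% and 24.1% of all tested genes. The higher ones had log2 fold changes of 1.91 (Inha), 1.56 (Fshr), 1.43 (Kitl), 1.12 (Inhba) and 1.11 (Nr5a2). Cyp19a1 was the lower one, at -0.90. Inha had 4.77 CPM in KO replicate 4 and 26.5 to 38.4 CPM in the other KO libraries. Foxl2, which was not tested, was at or near 0 in all 8 libraries. The 7 theca and stroma markers summed to 3.27 to 6.41 CPM and 3.47 to 5.11 CPM, and the 7 leukocyte markers to 1.26 to 2.52 CPM and 3.69 to 5.43 CPM. The part of these other cells in the results was not tested. Control replicate 1 stood apart: its chi-square per degree of freedom against the other controls was 140 to 209.5, compared with 7.85 to 17.7 among those 3. Results that rest on control replicate 1 are given with and without it, except the correlations between genes. KO replicate 4 stood apart less, at 40.4 to 91.2 against the other KO libraries, compared with 20.2 to 32.2 among those.

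Of the 9 genes, 8 lie on chromosome 7 (GRCm38) and Nlrp4f lies on chromosome 13 at chr13:65177111-65205977, minus strand. Nlrp9c (chr7:26322473-26403700, minus strand), Nlrp4a (chr7:26435113-26476142, plus strand) and Nlrp9a (chr7:26535023-26575615, plus strand) were close neighbours, with gaps of 31.4 kb and 58.9 kb. Nlrp4e (chr7:23301192-23362277, plus strand) lay 23.6 kb from Nlrp5, a core gene of the subcortical maternal complex. The remaining genes were dispersed, with Nlrp4c at chr7:6045161-6105150, Nlrp4b at chr7:10687789-10730168, Nlrp9b at chr7:19991465-20073306 and Nlrp14 at chr7:107166990-107198102, all on the plus strand. All 9 were annotated as protein coding, with open reading frames of 863 to 1004 codons. Exons of exactly 171 bases, the unit in which NLRP leucine-rich repeats are commonly encoded, numbered 5 in Nlrp14, 2 in Nlrp4b and Nlrp4f, and 3 in each of the others.

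Coding sequences were 77.8% to 93.9% identical within the Nlrp4 group and 82.8% to 87.7% identical within the Nlrp9 group. Between the groups, identity was 58.1% to 62.7%, and Nlrp14 was 59.8% to 63.1% identical to the other genes. Nlrp4c and Nlrp4e were the most alike pair. Despite this, few stretches were identical over 100 bases: no such window of Nlrp14, Nlrp4a or Nlrp4b, and at most 1.36% of those of Nlrp4c, Nlrp4f, Nlrp9a, Nlrp9b and Nlrp9c, occurred in another annotated gene. In Nlrp4e the share was 11.5%, mostly with predicted genes such as Gm8486 and Gm16443, so its counts are less certain than the others. Gm18877, annotated on the same strand, shared 3.65% of the exonic bases of Nlrp9b, so reads there could not be assigned to one gene.

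The ends of these mRNAs are shown because deadenylation acts there and because near-identical genes differed at this position. The annotated 3′UTRs were short, 193 to 1003 bases, against a median of 1109 bases over 15084 genes. In the following windows, read from the GRCm38 transcripts 5′ to 3′, capitals mark the polyadenylation signal AATAAA.
Nlrp4c, first signal: ctaagcatacAATAAAgtctttaaat
Nlrp4e: ttaagcatcgAATAAAatctttaaat
Nlrp4c, second signal: tttattaaatAATAAAtttaggcatt
Nlrp9a: aagcacattcAATAAAcactaagcat
Nlrp9b: aagcacatttAATAAAcactaagcgt
Nlrp9c: aagcacattaAATAAAcactaagcat
The window of Nlrp4e (chr7:23362245-23362270) resembled the first of Nlrp4c (chr7:6104914-6104939), but 17 bases followed the signal in the annotated Nlrp4e 3′UTR and 221 bases in that of Nlrp4c, which held a second signal (chr7:6105119-6105144) 16 bases from its end. In Nlrp9a (chr7:26574114-26574139), Nlrp9b (chr7:20062906-20062931) and Nlrp9c (chr7:26364700-26364725, minus strand) the signal ended 19 bases before the end of the 3′UTR. AATAAA was found in 82.2% of all 3′UTRs. Nlrp4f and Nlrp14 lacked the exact letters.

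The cytoplasmic polyadenylation element (CPE), searched on the sense strand as TTTTAT, is the site bound by CPEB1 in stored oocyte mRNAs. It occurred 3 times in the 3′UTR of Nlrp4a, 2 times in Nlrp4f and 1 time each in Nlrp4c, Nlrp9a and Nlrp9c, and these letters were not in the 3′UTRs of Nlrp4b, Nlrp4e, Nlrp9b and Nlrp14. Over all genes, 56.1% of 3′UTRs held it. The windows that contrast near-identical genes follow, with the element, or the aligned bases, in capitals.
Nlrp4c: gttttgtgttTTTTATtaaataataa
Nlrp4f: ctgttttgtgTTTTATattaaagaat
Nlrp9a: gtttatccttTTTTATgtttctccta
Nlrp9c: gcttatcctttTTTTATgtttctcctg
Nlrp9b: gcttatcctcTGTTATgtttctccca
The element of Nlrp4c (chr7:6105108-6105133) lay in the part of its 3′UTR beyond the end of the Nlrp4e one. That of Nlrp4f (chr13:65177130-65177155, minus strand) lay close to its 3′ end, 29 bases away. Counted from the first base of the Nlrp9a 3′UTR, the Nlrp9b window (chr7:20062752-20062777, plus strand) differed from that of Nlrp9a (chr7:26573966-26573991) by T14C, T22C, T24G and T37C, and T24G fell within the element. The Nlrp9c window (chr7:26364848-26364874, minus strand) kept the element. The Pumilio element TGTAAATA, held by 12% of 3′UTRs, was in none of the 9.

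Promoters, taken from RefSeq on GRCm38 as 250 bases before to 50 after each start, were matched for 8 of the 9 genes (10 starts), all except Nlrp14. Each held an E-box (CANNTG), the site of helix-loop-helix factors such as FIGLA, as did 72.3% of 32851 promoters. The windows shared between genes are shown, with the E-box in capitals.
Nlrp4a, second start: gcgctggccaatCACATGgcaacatagaat
Nlrp4b: tcattgaccaatCACATGgtaccatagact
Nlrp4c: gcattggccaatCACATGgcaccatagacc
Nlrp9a: aacctaatagcaCAGGTGaaatatttttga
Nlrp9c: aacctaatagcaCAGGTGaaatatttttga
These 3 Nlrp4 windows lie at chr7:26435557-26435586, chr7:10687732-10687761 and chr7:6045136-6045165, and the Nlrp9a and Nlrp9c windows, which are the same over all bases shown, at chr7:26534930-26534959 and chr7:26403808-26403837. The homeobox motif TAATTG, read on both strands, was in the promoters of Nlrp9a and Nlrp9b and in 8.00% of all promoters. TATAAA, read likewise, was in that of Nlrp9b and in 13.6% of all.

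In control oocytes Nlrp14 and Nlrp4f were among the most abundant transcripts, and Nlrp4c was the lowest of the 9. Levels were compared between genes as CPM per kb of exonic length. Nlrp14 stood at 2048 ± 433 CPM per kb (SD, n = 4), rank 9 of 19126 genes, and Nlrp4f at 845 ± 155, rank 38. Nlrp4a (311 ± 74.9, rank 127), Nlrp4b (232 ± 39.8, rank 187), Nlrp9a (193 ± 52.0, rank 237), Nlrp9c (124 ± 24.7, rank 403) and Nlrp9b (88.9 ± 33.6, rank 607) followed, then Nlrp4e (54.2 ± 14.0, rank 1167) and Nlrp4c (13.3 ± 3.55, rank 4049). Every control library kept this order. With the longest transcript in place of all exons as the length, Nlrp9c stood above Nlrp9a in all 4. Across libraries, the ranges of neighbours overlapped from Nlrp4a down to Nlrp4e, whereas those of Nlrp14, Nlrp4f and Nlrp4a were apart, and so were those of Nlrp4e and Nlrp4c.

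In KO oocytes the order became Nlrp14, Nlrp4f, Nlrp9a, Nlrp4a, Nlrp4b, Nlrp9c, Nlrp9b, Nlrp4c and Nlrp4e. Nlrp9a stood above Nlrp4a in all 4 KO libraries and below it in all 4 controls, but per kb of the longest transcript it stood above Nlrp4a in 1 of 4 KO libraries. Nlrp4c stood above Nlrp4e in the KO and below it in the control with either length. Nlrp4b exceeded Nlrp9c in 2 of 4 KO libraries, so these neighbours could not be ordered.

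**Figure D1:**
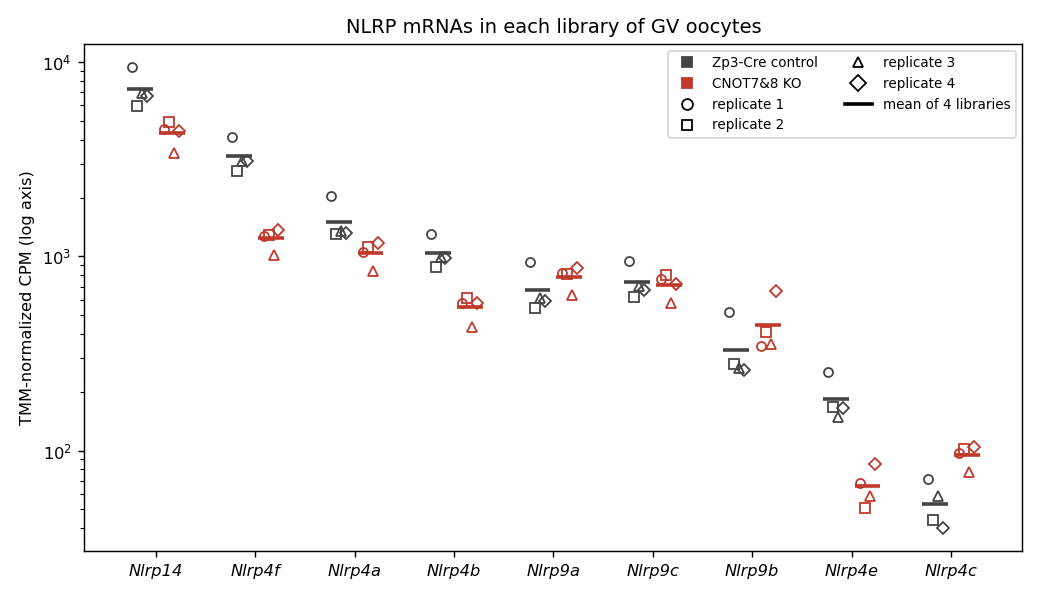
CPM scaled by edgeR's TMM method (log axis) of each of the 9 genes in the 4 Zp3-Cre control (grey) and 4 CNOT7&8 KO (red) libraries, with 1 symbol for each replicate and a bar at the mean. KO libraries lie below all controls for Nlrp14, Nlrp4f, Nlrp4a, Nlrp4b and Nlrp4e and above them for Nlrp4c, the groups overlap for the 3 Nlrp9 genes, and control replicate 1 (circle) is the highest control for all 9 genes.

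The comparison of KO with control oocytes asked how the level of each mRNA, relative to the other mRNAs of its library, differed without the CNOT7 and CNOT8 deadenylases. The scaling used no spike-in, so lower and higher are relative, and the amount per oocyte was not measured. All 9 genes passed the filter on low counts. Nlrp4a, Nlrp4b, Nlrp4e, Nlrp4f and Nlrp14 were lower in the KO and Nlrp4c was higher at a false discovery rate (FDR) of 0.05, and the 3 Nlrp9 genes did not pass. The 5 lower genes stand beside 24.1% of the 19241 tested genes, and the 1 higher gene beside 31.2%. Among 2414 abundant genes, whose mean was 100 CPM or more as in all of these but Nlrp4c, 55.2% were lower and 8.37% higher. Differentially expressed genes (DEGs), with a change of at least 2-fold as well, were Nlrp4e and Nlrp4f, both lower, beside 6.56% of all tested genes and 6.05% of the abundant ones. None of the 9 was a DEG that rose by the quasi-likelihood test, by edgeR's exact test, by DESeq2 or at an unadjusted p under 0.05, beside 23.8% of all tested genes and 1.57% of the abundant ones. The median log2 fold change was -0.53 over the 9 genes, 0.12 over all tested genes and -0.37 over the abundant genes. Relative to the median of the abundant genes, Nlrp4e stood at -1.12, Nlrp4f at -1.02, Nlrp4b at -0.55, Nlrp14 at -0.37 and Nlrp4a at -0.15. By the same reference Nlrp9c stood at 0.33, Nlrp9a at 0.60, Nlrp9b at 0.79 and Nlrp4c, which is outside the abundant genes, at 1.21. Against the median of all tested genes, Nlrp9c stood at -0.16, Nlrp9a at 0.11, Nlrp9b at 0.30 and Nlrp4c at 0.72. By that second reference Nlrp4e stood at -1.61, Nlrp4f at -1.52, Nlrp4b at -1.04, Nlrp14 at -0.86 and Nlrp4a at -0.64. In pooled oocytes, fewer cells of a kind and less RNA per cell cannot be told apart.

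Nlrp14, whose protein acts with the chromatin factor UHRF1, had 9452, 5938, 6913 and 6667 CPM in control replicates 1 to 4. It had 4525, 4950, 3429 and 4441 CPM in the KO replicates. All KO libraries lay below all controls. The mean went from 7242 ± 1530.2 to 4336 ± 644 CPM (SD, n = 4), 59.9% of the control, the log2 fold change being -0.74 ± 0.16 (SE, adjusted p = 0.00176 by quasi-likelihood). Without control replicate 1 the KO mean was 66.7% of the control.

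Nlrp4f, required for the organization of the oocyte cytoplasm, had 4142, 2757, 3085 and 3103 CPM in the controls. In the KO it had 1276, 1295, 1018 and 1375 CPM. Every control lay well above every KO library. The mean was 37.9% of the control, and the log2 fold change was -1.40 ± 0.14 (SE, adjusted p = 8.67e-06 by quasi-likelihood).

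Nlrp4e had 255, 168, 149 and 166 CPM in the controls and 68.0, 50.6, 58.1 and 85.1 CPM in the KO libraries. Its mean fell to 35.5% of the control, the log2 fold change being -1.49 ± 0.19 (SE, adjusted p = 5.07e-05 by quasi-likelihood). This was within the error of that of Nlrp4f, and without KO replicate 2 the values were -1.36 for Nlrp4e and -1.39 for Nlrp4f. The groups were apart, with the share of its sequence found in predicted genes as given above.

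Nlrp4c, its closest relative, went the other way. The controls had 71.1, 43.9, 58.2 and 40.0 CPM, and the KO libraries 96.6, 102, 77.8 and 105 CPM. The lowest KO library exceeded the highest control, control replicate 1, by less than the spread within either group. The log2 fold change was 0.84 ± 0.18 (SE, adjusted p = 0.00175 by quasi-likelihood). It was the least abundant of the 9 in the control, and without control replicate 1 its log2 fold change was 1.01, past the 2-fold limit.

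Because both genes were counted in the same library, the ratio of Nlrp4c to Nlrp4e counts does not depend on how libraries are scaled. The ratio was 0.240 to 0.392 in control and 1.23 to 2.02 in KO libraries. This was a difference of 2.36 on the log2 scale (exact permutation test, two-sided p = 0.0286, adjusted p = 0.0381 over 4 ratios, n = 4 and 4). Only 21 windows of 100 bases were shared between these 2 transcripts. A p of 0.0286 is the smallest that 70 assignments of 8 libraries allow, and these 4 ratios were picked after the values were seen.

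Nlrp4a and Nlrp4b fell less. Nlrp4a had 2049.5, 1307, 1346 and 1322 CPM in the controls and 1053, 1121, 838 and 1171 CPM in the KO libraries. The groups were apart, but the log2 fold change of -0.53 ± 0.16 (SE, adjusted p = 0.0147 by quasi-likelihood) was the smallest of those that passed. The mean was 69.4% of the control, or 78.9% without control replicate 1, where the log2 fold change was -0.34 (adjusted p = 0.0159). With library sizes alone, and with TMM on genes of at least 10 CPM, it was -0.24 and -0.26 and did not pass. Relative to the median of all tested genes Nlrp4a stood at -0.64 both with TMM and with library sizes alone, and relative to that of the abundant genes at -0.15 with both. Nlrp4b had 1298, 885, 998 and 980.2 CPM in the controls and 573, 607, 431 and 578 CPM in the KO libraries. Its log2 fold change was -0.93 ± 0.14 (SE, adjusted p = 0.000181 by quasi-likelihood), to 52.6% of the control mean.

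The Nlrp9 genes did not pass the test when all libraries were used. Nlrp9a had 939, 545, 612 and 587 CPM in the controls and 826, 808, 629.7 and 868 CPM in the KO libraries. Nlrp9b, the sensor gene of the gut, had 518, 279, 267 and 259 CPM in the controls and 346, 407, 354 and 663 CPM in the KO libraries. Nlrp9c had 948, 615, 707 and 671 CPM in the controls and 766, 801, 575 and 717 CPM in the KO libraries. For Nlrp9a, control replicate 1 lay above every KO library, and for Nlrp9b it lay within their range. The other 3 controls lay below every KO library for both genes. KO replicate 4 had the most Nlrp9b, 663 CPM against 346 to 407 CPM in the other KO libraries.

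The log2 fold change of Nlrp9a was 0.22 with an interval of 1.96 standard errors either side from -0.11 to 0.55 (adjusted p = 0.281, edgeR's quasi-likelihood test). For Nlrp9b it was 0.42, from -0.07 to 0.91 (adjusted p = 0.174, the same test), and for Nlrp9c -0.04, from -0.33 to 0.25 (adjusted p = 0.827, the same test). These intervals leave room for increases approaching 2-fold in Nlrp9b. Without control replicate 1, Nlrp9a had a log2 fold change of 0.43 (adjusted p = 0.00546) and Nlrp9b 0.72 (adjusted p = 0.00681), both past the test, whereas Nlrp9c had 0.10 (adjusted p = 0.445) and did not pass. The sign of Nlrp9c turned under other scalings as well, and its sign also depended on the reference. Relative to the median of all tested genes Nlrp9c stood at -0.16 both with TMM and with library sizes alone, and relative to the median of the abundant genes at 0.33 and 0.34.

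An exact permutation test of the CPM values, two-sided, gave p = 0.0286 for each of the 6 genes past the FDR. It gave 0.371 for Nlrp9a and Nlrp9b and 0.886 for Nlrp9c. The ranges of the groups did not overlap for 5 lower genes, beside 21.4% of all tested genes and 50.9% of the abundant ones, and for 1 higher gene, beside 27.0% and 6.42%. Without control replicate 1, 5 lower and 3 higher genes were apart, the 3 being Nlrp4c, Nlrp9a and Nlrp9b. The background then rose too, to 26.5% lower and 32.1% higher over all tested genes and to 56.1% and 14.3% over the abundant ones.

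**Figure D2:**
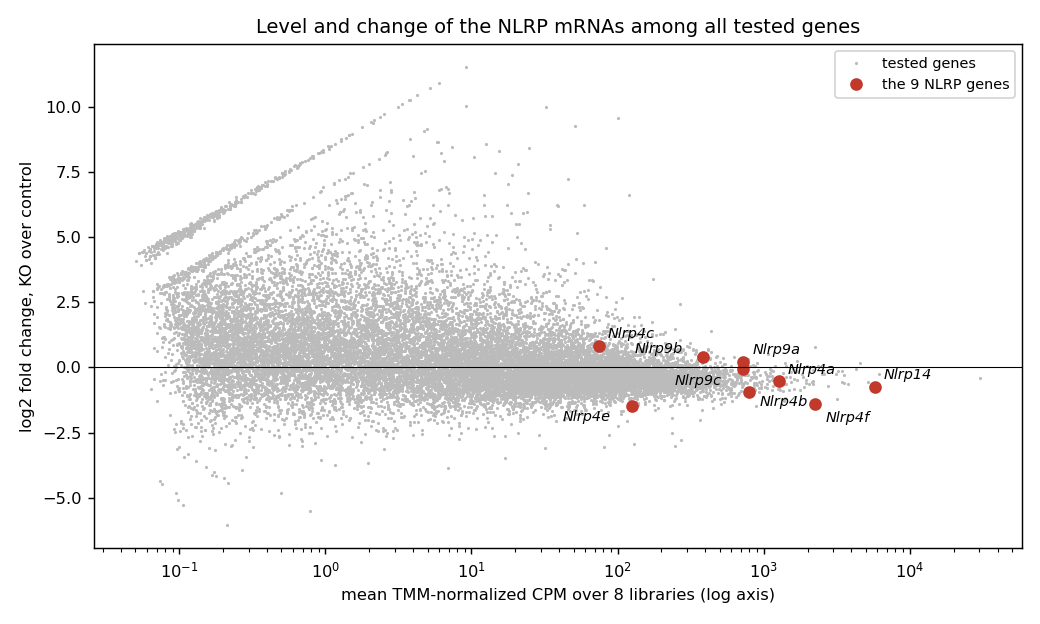
Log2 fold change of KO over control (vertical) against mean CPM over 8 libraries (log axis) for 19241 tested genes (grey) and the 9 NLRP genes (red). The NLRP genes lie at the abundant end, between -1.49 for Nlrp4e and 0.84 for Nlrp4c, and the slanted grey bands are genes at or near 0 in the control, whose fitted values are no measure of fold.

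**Figure D3:**
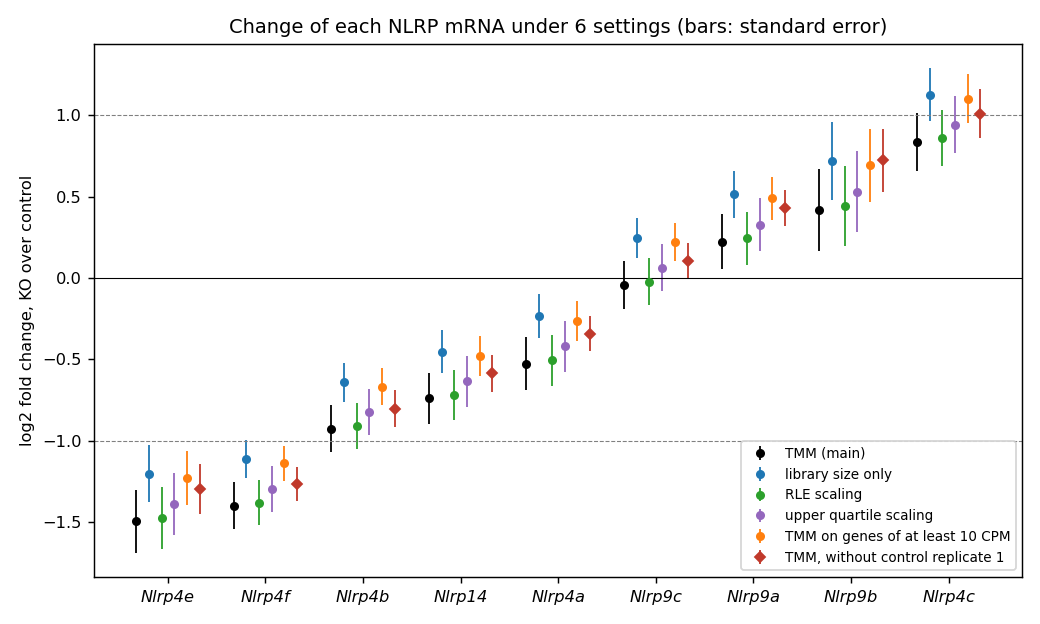
Log2 fold change of KO over control with its standard error for each gene under 5 scalings of the libraries and without control replicate 1, with dashed lines at 2-fold. The settings shift all genes together and keep their order, so that Nlrp4e and Nlrp4f stay lowest and Nlrp4c stays highest while Nlrp9c moves from -0.04 to 0.25 with library size only.

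Since scaling moved all 9 genes together, the share of each gene in the summed counts of the 9 was also taken. Together they made 1.15% to 1.67% of all counts in control and 0.846% to 1.12% in KO libraries. The summed level was 19672, 12537, 14135 and 13797 CPM in the controls and 9529.6, 10142, 7412 and 10002 CPM in the KO libraries. The KO mean of 9272 ± 1267 CPM was 61.7% of the control mean of 15035 ± 3167 CPM (SD, n = 4), or 68.7% without control replicate 1.

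Within this pool the 5 Nlrp4 genes took 39.7% to 41.2% in control and 31.3% to 33.1% in KO libraries. The 3 Nlrp9 genes took 11% to 12.2% and 19.9% to 22.5%. Nlrp14 took 47.4% to 48.9% and 44.4% to 48.8%, ranges that overlapped. Thus the Nlrp4 and Nlrp9 shares were apart between the groups, in opposite directions. Control replicate 1 had the largest pool of all, yet its shares of Nlrp4 (39.7%), Nlrp9 (12.2%) and Nlrp14 (48%) were near those of the other controls.

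Among single genes, the share of Nlrp4f went from a mean of 21.8% to 13.4% and that of Nlrp9a from 4.43% to 8.45%. Nlrp9b rose in share from 2.16% to 4.76%, and Nlrp9c from 4.90% to 7.72%. Nlrp4c went from 0.353% to 1.03%, which is 2.91 times its control share. Nlrp4a also held a larger share of the smaller pool, 11.3% after 9.99%, while Nlrp4b (6.96% to 5.90%) and Nlrp4e (1.22% to 0.712%) held less. For 8 of the 9 genes, all except Nlrp14, the shares of the groups did not overlap. Shares of this pool have no counterpart over all tested genes, so this count has no background and is given as a description only. Shares must sum to the whole, so a rise in one does not by itself mean more mRNA.

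**Figure D4:**
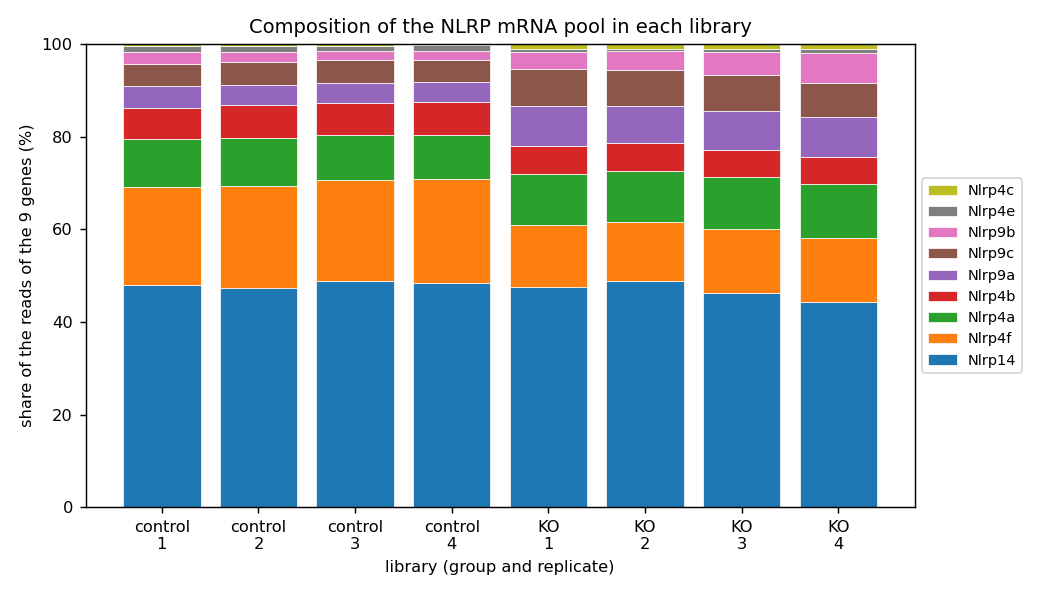
Share (%) of each gene in the summed counts of the 9 NLRP genes, stacked for each library. The controls resemble each other, Nlrp4f (orange) takes 21.8% on average in control and 13.4% in KO libraries, and the 3 Nlrp9 genes together widen from 11.5% to 20.9%.

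Other ratios compared neighbours on the chromosome and close relatives. They too were among the 4 picked after the values were seen. The adjustment does not cover that choice, so their p-values are given as a description. The ratio of Nlrp4a to its neighbour Nlrp9a was 2.18 to 2.40 in control and 1.28 to 1.39 in KO libraries, a log2 difference of -0.76 (exact permutation test, two-sided p = 0.0286, adjusted p = 0.0381 over 4 ratios). That of Nlrp9a to Nlrp9c was 0.865 to 0.990 and 1.01 to 1.21, a log2 difference of 0.28 with the same p-values. The ratio of Nlrp9a to Nlrp9b was 1.81 to 2.29 and 1.31 to 2.39, and these ranges overlapped (p = 0.486 by the same exact test). KO replicate 4, which had the most Nlrp9b, gave the lowest of these ratios.

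**Figure D5:**
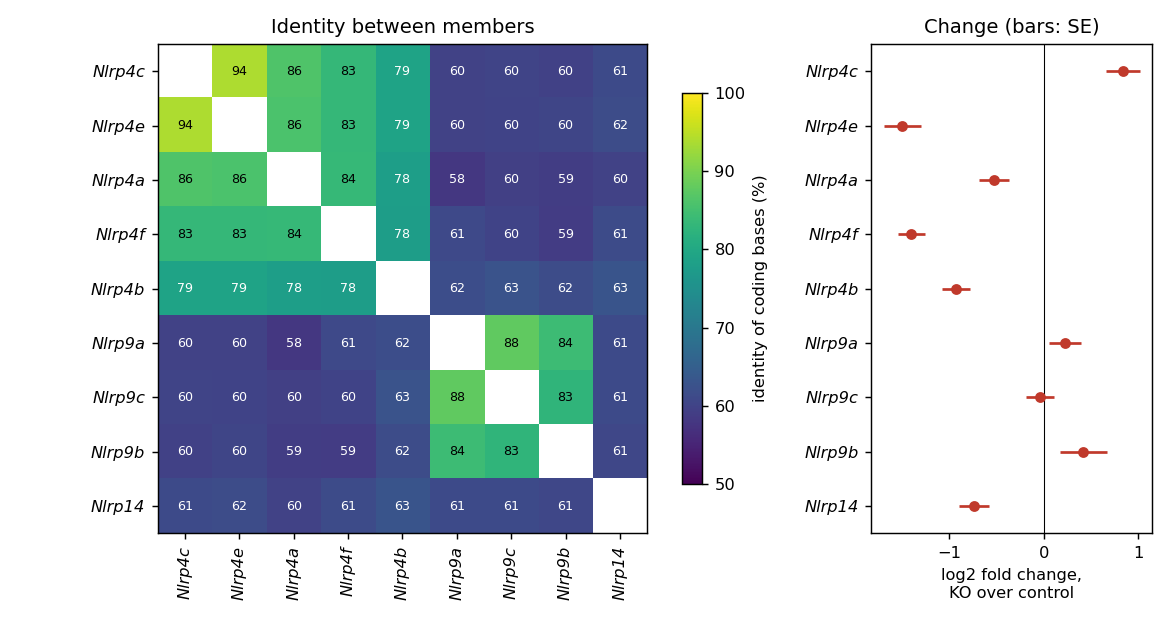
Identity of coding sequence (%) for each of the 36 pairs of genes, beside the log2 fold change of KO over control with its standard error. The most alike pair, Nlrp4c and Nlrp4e, moved in opposite directions (0.84 and -1.49), whereas the 3 Nlrp9 genes lie between -0.04 and 0.42.

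Within the groups the 9 genes varied together from library to library. After subtracting group means, Pearson correlations of log2 CPM over the 8 libraries were positive for all 36 pairs, from 0.494 to 0.995. These values share library and scaling, were not recomputed without control replicate 1, and are given as a description. Over all 8 libraries, without that step, they ranged from -0.71 for Nlrp4c with Nlrp4f to 0.988 for Nlrp4b with Nlrp14. Control replicate 1 was the highest control for all 9 genes and the highest of the 8 libraries for 7, and KO replicate 3 was the lowest KO library for 7.

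Outside the 9, genes averaging 10 CPM or more whose levels over the 8 libraries were most like each gene were sought among 8719. The closest to Nlrp4f was Nlrp4g (Pearson r = 0.998), to Nlrp4b Xpo1 (0.998) and to Nlrp14 Fbxw24 (0.998). The closest to Nlrp4e was Golga3 (0.997), to Nlrp4a Atp8a1 (0.994), to Nlrp9a Zfp97 (0.993), to Nlrp4c Lonrf3 (0.990), to Nlrp9b Wdr37 (0.989) and to Nlrp9c Gm26919 (0.986). The mean of the 9 was most like Ercc6l (0.994), Ddx1 (0.992) and Zbtb37 (0.992). With 8 libraries in 2 groups, any gene that separates the groups in the same sense correlates strongly.

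Of the 12 other NLRP genes and pseudogenes, 8 were tested, with 3 lower and 1 higher, beside 24.1% and 31.2% of all tested genes. Over the 17 alternatives, 2 to 3 were lower. Nlrp4g, a transcribed pseudogene on chromosome 9, had 750.3, 489, 516 and 531 CPM in the controls and 189.9, 205, 142 and 196 CPM in the KO libraries. It fell like Nlrp4f, with a log2 fold change of -1.64 (adjusted p = 5.92e-06, edgeR's quasi-likelihood test), and no window of 100 bases of it occurred in another gene. Nlrp2 fell by 0.91 on the log2 scale (916 ± 171 to 487 ± 59.4 CPM, adjusted p = 0.000178, the same test). Nlrp10, a family member without leucine-rich repeats, had a log2 fold change of -1.81 (adjusted p = 0.0243, the same test) at 1.14 ± 0.584 and 0.290 ± 0.219 CPM, and its groups overlapped. The call on Nlrp10 was lost in 7 of the 16 alternatives that held a value for it.

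Nlrp5, next to Nlrp4e, had 2921, 1632, 1676 and 1708 CPM in the controls and 1719, 1741, 1401 and 1751 CPM in the KO libraries, with a log2 fold change of -0.26 (adjusted p = 0.227, edgeR's quasi-likelihood test). Control replicate 1 alone lay above the KO range, and the mean was 83.3% of the control with it and 98.9% without it, where the log2 fold change was -0.017 (adjusted p = 0.886). The pseudogene Nlrp5-ps was higher, 3.83 ± 0.798 to 6.42 ± 0.816 CPM (log2 fold change 0.74, adjusted p = 0.00873, the same test), but 56.4% of its windows occurred in other genes, so its counts are uncertain. Nlrp3 (0.295 ± 0.202 and 0.247 ± 0.150 CPM), Nlrp6 (0.20 ± 0.173 and 0.257 ± 0.1995 CPM) lay near the floor and did not pass. Nlrp12 was at 0.987 ± 0.356 and 1.20 ± 0.294 CPM and did not pass either (adjusted p = 0.574, the same test).

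The subcortical maternal complex, which holds NLRP5 and NLRP2 under the oocyte membrane, is the nearest comparison. Of its 7 genes, 4 were lower and 1 higher, with a median log2 fold change of -0.31. Over all tested genes 24.1% were lower and 31.2% higher, and over the abundant ones 55.2% and 8.37%. Tle6 fell by 1.24, Ooep by 0.88 and Padi6 by 0.31 on the log2 scale, and the call on Padi6 was lost in 6 of 17 alternatives. Khdc3 rose from 13.4 ± 2.48 to 60.3 ± 5.30 CPM, a log2 fold change of 2.17. Zbed3 had a log2 fold change of -0.10 (adjusted p = 0.603, edgeR's quasi-likelihood test). Of 4 genes whose proteins act with NLRP14 or UHRF1, the 3 tested were all lower, with a median of -1.13, beside 24.1% of all tested and 55.2% of abundant genes. Dnmt1, the maintenance DNA methyltransferase, fell by 1.20 and Uhrf1, its recruiting factor, by 1.13 on the log2 scale, each a DEG like Nlrp4f. Dppa3, which binds UHRF1, had the smallest change of the 3, -0.29 on the log2 scale (adjusted p = 0.0261, edgeR's quasi-likelihood test), and lost its call in 9 of 17 alternatives.

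NOD-like receptors of other groups and the proteins of inflammasomes belong to the immune side of the family. Of 11 receptors outside the NLRP group, 9 were tested, 6 higher and 2 lower, beside 31.2% and 24.1% of all tested genes. Their median log2 fold change was 1.98, or 1.48 with genes at the control floor set to their lower bound, but their summed level was 128 to 154 CPM in control and 127 to 159 CPM in KO libraries. The 2 lower genes, named after their values were seen, were Nlrc4, the partner of NAIP proteins (39.0 ± 6.55 to 15.5 ± 1.98 CPM, log2 fold change -1.34, a DEG), and Nod2, a sensor of bacterial cell walls (48.6 ± 5.15 to 30.1 ± 1.25 CPM, log2 fold change -0.69). Naip1, also named after its values were seen, rose from 48.4 ± 9.96 to 88.5 ± 11.7 CPM (log2 fold change 0.87), at a level like that of these lower genes. Ciita, the class II transactivator, had no count in any control library and 0.109 to 1.30 CPM in the KO. Naip5, a sensor of flagellin, had 0 to 0.408 CPM in the controls and 1.09 to 2.35 CPM in the KO. Of 11 inflammasome partners, 8 were tested and 4 were higher, beside 31.2% of all tested genes. Their median was 0.63, or 0.44 with such bounds. Pycard, the adaptor ASC, had 0 to 0.136 CPM in the controls and 0.247 to 1.41 CPM in the KO, and Aim2 had no count in the controls and 0.062 to 0.434 CPM in the KO. Of 5 leukocyte markers tested, 2 were higher in the KO, beside 31.2% of all tested genes. They were Ptprc (0.122 ± 0.147 to 0.616 ± 0.343 CPM, log2 fold change 2.53) and Cd68 (1.20 ± 0.437 to 3.25 ± 0.579 CPM, log2 fold change 1.46). Itgam, Csf1r and Adgre1 did not pass. The part of leukocytes in these values was not tested.

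Of 8 transcription factors of oocyte genes, 3 were higher and 4 lower, beside 31.2% and 24.1% of all tested genes. Their median log2 fold change was -0.36, and 1 to 4 were lower over the 17 alternatives. Taf4b, a subunit of the general factor TFIID in germ cells, rose from 57.7 ± 12.7 to 104.7 ± 12.9 CPM (log2 fold change 0.86). Sohlh1, a helix-loop-helix factor of early follicles, was at 0.178 ± 0.036 and 0.587 ± 0.076 CPM (log2 fold change 1.65). It had only 2 to 8 counts in each control library, near the detection floor. Nobox was also higher (log2 fold change 0.35). The 4 lower genes were Sohlh2 (log2 fold change -0.84), Figla (-0.63), Gata4 (-0.39) and Lhx8 (-0.37). Among the nearest tested genes on either side of the 9, Ceacam20, 0.361 kb from Nlrp9b, went from 92.9 ± 12.3 to 29.6 ± 4.57 CPM (log2 fold change -1.65, adjusted p = 2.75e-06, edgeR's quasi-likelihood test), whereas Nlrp9b had a log2 fold change of 0.42. Mfsd14b, beside Nlrp4f, had 137 ± 17.2 and 134 ± 10.7 CPM (log2 fold change -0.03, adjusted p = 0.858, the same test).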

How the data were processed

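RNA-seq was made from 8 libraries of GV oocytes in 2 groups, taken from the sample labels. The labels name a stranded total RNA kit with ribosomal RNA removal, and the methods a stranded mRNA kit with 11 PCR cycles, described as one that permits depletion of ribosomal RNA. The authors ran the nf-core/rnaseq pipeline, mapped 150-bp read pairs to GRCm38 with STAR (version 2.6.1d) and deposited the raw counts of reads on each gene, neither normalized nor pooled. The counting tool in that pipeline, the annotation release and the strand setting are not given in the sources used here. Reads shared by near-identical genes may therefore be split or dropped.

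Counts were analyzed with edgeR 4.0.16 in R 4.3.3. Of 28353 genes with a count, 19241 were tested, those reaching 0.2 CPM in 2 libraries or more. Libraries were scaled by TMM (factors 0.849 to 0.943 in control, 1.07 to 1.14 in KO), which takes most genes as unchanged. The quasi-likelihood test was used, with Benjamini-Hochberg adjustment over all tested genes. The standard error is the log2 fold change over the square root of F. A DEG had an adjusted p up to 0.05 and a change of 2-fold or more. CPM are counts over the scaled library size. Single values were compared by exact permutation over 70 assignments. On simulated counts of 19241 genes, 200 of them changed by 2 on the log2 scale, this test recovered 194 with 5 false calls. Detection floors cover counting error only.

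Coordinates, lengths and transcripts came from GENCODE vM21 (GRCm38), which held 98.2% of the gene identifiers. The 3′UTR was the longest annotated one of at least 50 bases, and exonic length the union of exons. Identity was computed with Biopython 1.88, and figures with matplotlib 3.10.9. Gsdme and H1f8 were found as Dfna5 and H1foo.

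All 9 genes are named, with every tested gene of the other NLRP and subcortical maternal complex lists, Cnot7, Cnot8, the 2 largest changes of each other list, and the genes most correlated with each member. Mfsd14b and Ceacam20 were chosen after their values were seen, and so were Naip1, Nlrc4, Nod2 and the named granulosa markers that passed the test. The other oocyte transcription factors that passed were also added after their values were seen. Members and lists were chosen with earlier results of these data known. Alternatives tried were DESeq2 1.42.0, the exact test of edgeR, 4 other scalings, 2 other filters, the replicate number as a block, and leaving out each library. The longest transcript as the length behind the order of levels was added after the data were seen.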

Additional observations from a re-analysis of the deposited data

Results flagged for a closer look

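One library was far from the other 3 of its group by Dixon's test in 7 of 32 groups examined, where chance flags about 1 in 20. In 6 of these it was control replicate 1. Its levels were 2049.5 CPM of Nlrp4a (other controls 1307 to 1346), 939 CPM of Nlrp9a (545 to 612), 518 CPM of Nlrp9b (259 to 279), 2921 CPM of Nlrp5 (1632 to 1708), 750.3 CPM of Nlrp4g (489 to 531) and 1049 CPM of Cnot7 (886 to 900.2). It was also the deepest library, with 44092144 counts. The remaining one was KO replicate 3, with 1401 CPM of Nlrp5 (other KO libraries 1719 to 1751).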

How the results depend on the processing

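Nlrp4b, Nlrp4c, Nlrp4e, Nlrp4f and Nlrp14 kept their direction and their side of the test in all 17 alternatives. With library size only, the median log2 fold change of all genes moved from 0.12 to 0.41 and the DEGs from 4582 up and 1263 down to 5643 and 587. Then 1 gene, Nlrp4c, was a DEG that rose and 3 were higher at the FDR, with log2 fold changes of -0.24 for Nlrp4a (adjusted p = 0.161, no longer past the test), 0.51 for Nlrp9a and 0.72 for Nlrp9b (both past it), and 0.25 for Nlrp9c and 0.031 for Nlrp5 (both turned in sign). Cnot7 was at -0.092, not past the test, 1 oocyte transcription factor was lower, and the log2 ratio of the summed level was -0.41 after -0.70. TMM on genes of at least 10 CPM (all-gene median 0.37, 5495 DEGs up and 628 down) gave likewise 1 DEG that rose and 3 higher genes, with -0.26 for Nlrp4a, 0.49 for Nlrp9a, 0.69 for Nlrp9b, 0.22 for Nlrp9c, 0.0065 for Nlrp5, -0.12 for Cnot7 and 1 lower transcription factor. Nlrp9c also turned with upper quartile scaling (0.062, all-gene median 0.22) and when genes needed 1 CPM in 4 libraries (0.031), which tested fewer genes and left 3 higher receptors outside NLRP and 2 higher inflammasome partners.

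Leaving out 1 library at a time gave 0 to 1 DEGs that rose and 1 to 3 higher genes, both highest without control replicate 1. Log2 fold changes ranged from -0.59 to -0.34 for Nlrp4a, 0.13 to 0.43 for Nlrp9a, 0.19 to 0.72 for Nlrp9b and -0.12 to 0.10 for Nlrp9c, positive without control replicate 1 (0.10) and without KO replicate 3 (0.08). The inflammasome partners that were higher numbered 2 without KO replicate 1.

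The replicate numbers did not pair the samples. Deviations of same-numbered samples correlated at -0.07, -0.04, 0.11 and -0.12, and the 2 groups come from different females. With the replicate number as a block, 5 genes were lower and 1 higher as before, with log2 fold changes of -0.51 for Nlrp4a and 0.25 for Nlrp9a, and no call on the 9 genes changed. The calls on Dppa3, Padi6, Gata4, Naip2 and Casp1 were lost under the block, each taking 1 gene from its list, and those on Dppa3 and Padi6 also with upper quartile scaling, library size only, TMM on genes of at least 10 CPM and the filter of 1 CPM in 4 libraries.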
